A study of Mus musculus with 6 samples.

Results

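Distal regions that were open in every library were examined in an ATAC-seq series on mouse brown pre-adipocytes, the precursors of brown fat cells. Peaks of the 6 deposited lists on chromosomes 1 to 19, X and Y were merged wherever they shared at least 1 bp, which gave 68913 union regions. A region was kept when all 6 libraries had a peak in it and its midpoint lay more than 1 kb from both ends of every protein-coding gene of mm10. These 2 conditions left 3593 constitutive distal regions, out of 9136 regions with a peak in 6 of 6 libraries. The other 5543 lay within 1 kb of a coding gene end and are called gene-end regions here.

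ATAC-seq marks open chromatin through a transposase that inserts sequencing adapters into accessible DNA. The day 1 group is 3 libraries of cells of the line labelled BAT after 1 day of brown adipocyte differentiation, and the day 0 group is 3 libraries of the same line labelled WT. The title of the series concerns loss of RUNX1 or RUNX2, and no label of the libraries used here names such a loss. The labels name neither an inducing agent nor the origin of the line, and they do not say whether replicates were separate cultures, so each p-value here reflects scatter among libraries that could be technical alone.

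Open regions away from gene ends include enhancers, which bind transcription factors and act on promoters over a distance, insulators bound by CTCF, and promoters of alternative or non-coding transcripts. Differentiation of brown fat cells is known to start with C/EBPβ and C/EBPδ and to pass on to PPARγ and C/EBPα, with EBF2 and PRDM16 setting the brown identity. RUNX proteins are DNA-binding factors that act with the partner CBFβ.

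The regions were chosen by the presence of a deposited peak in every library and by distance, so that presence is a description and not a result. It also means that a region that closed altogether by day 1 could not be among them. The nearest regions on either side of the 1 kb limit were those near Tmem263 and Eif4a1, each 1000.5 bp from a gene end and inside the set, and the one near Zdhhc14, 999.5 bp away and outside it. On the other limit, 2880 distal regions had a peak in 5 of 6 libraries, and in 2119 of them (73.6%) the library without a peak was day 1 replicate 3. That library had the shortest list, with 12556 peaks used.

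Some constitutive distal regions overlapped an annotated transcription start in spite of their distance from gene ends. The window of each start runs from 250 bases before it to 50 bases after it in the RefSeq promoter table (GRCm38.p6, the assembly that mm10 names). The 7 windows below were printed because a region at them was among the largest rises or falls at starts, stood highest, or belongs to Runx1, the gene in the title of the series. The sequences are RefSeq's, 5′ to 3′ on the strand of the transcript, in lower case with each CpG dinucleotide in capitals.
Hsd11b1: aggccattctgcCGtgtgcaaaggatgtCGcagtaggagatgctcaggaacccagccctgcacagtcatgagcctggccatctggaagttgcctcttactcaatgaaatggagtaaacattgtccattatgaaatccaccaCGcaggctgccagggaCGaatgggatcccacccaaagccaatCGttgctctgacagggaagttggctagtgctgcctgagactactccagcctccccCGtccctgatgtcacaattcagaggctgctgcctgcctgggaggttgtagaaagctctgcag
Gm30713: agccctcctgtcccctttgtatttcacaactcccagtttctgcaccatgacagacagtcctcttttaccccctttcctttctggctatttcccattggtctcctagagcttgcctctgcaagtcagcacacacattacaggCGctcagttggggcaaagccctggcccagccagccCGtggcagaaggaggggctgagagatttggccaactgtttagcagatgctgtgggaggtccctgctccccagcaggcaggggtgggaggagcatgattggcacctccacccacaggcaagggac
Sbno2: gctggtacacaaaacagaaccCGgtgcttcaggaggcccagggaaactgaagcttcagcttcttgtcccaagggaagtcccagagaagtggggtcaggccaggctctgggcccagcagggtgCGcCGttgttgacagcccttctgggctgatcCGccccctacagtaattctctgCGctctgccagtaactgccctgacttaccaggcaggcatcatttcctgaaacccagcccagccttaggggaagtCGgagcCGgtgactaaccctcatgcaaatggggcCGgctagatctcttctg
Gm30615: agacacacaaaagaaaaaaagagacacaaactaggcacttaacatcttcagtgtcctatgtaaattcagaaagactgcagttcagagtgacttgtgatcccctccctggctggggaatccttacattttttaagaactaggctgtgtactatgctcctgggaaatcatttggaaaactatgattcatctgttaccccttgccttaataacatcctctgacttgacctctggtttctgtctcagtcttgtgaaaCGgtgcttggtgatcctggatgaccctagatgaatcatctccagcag
Osbpl2: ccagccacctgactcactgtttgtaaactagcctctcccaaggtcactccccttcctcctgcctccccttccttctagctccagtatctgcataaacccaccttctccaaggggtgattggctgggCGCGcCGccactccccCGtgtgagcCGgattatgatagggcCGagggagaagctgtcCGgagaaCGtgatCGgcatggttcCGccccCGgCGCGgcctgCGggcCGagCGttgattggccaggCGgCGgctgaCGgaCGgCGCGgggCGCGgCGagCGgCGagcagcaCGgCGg
Ptprs: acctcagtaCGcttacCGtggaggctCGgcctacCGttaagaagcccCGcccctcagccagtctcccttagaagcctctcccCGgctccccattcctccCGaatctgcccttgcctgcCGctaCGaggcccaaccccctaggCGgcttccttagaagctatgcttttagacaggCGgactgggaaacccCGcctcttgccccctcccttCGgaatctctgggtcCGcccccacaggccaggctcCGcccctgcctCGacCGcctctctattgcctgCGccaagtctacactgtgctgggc
Runx1: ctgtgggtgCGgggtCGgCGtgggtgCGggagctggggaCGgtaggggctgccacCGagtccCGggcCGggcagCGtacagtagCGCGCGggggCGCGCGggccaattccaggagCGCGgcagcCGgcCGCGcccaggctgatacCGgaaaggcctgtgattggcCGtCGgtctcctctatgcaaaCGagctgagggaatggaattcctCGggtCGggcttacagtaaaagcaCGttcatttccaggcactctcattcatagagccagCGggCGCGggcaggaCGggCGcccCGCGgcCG

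The Hsd11b1 window lies at chr1:193242311-193242610 on the minus strand, inside the gene of the enzyme that regenerates active glucocorticoid, and the region at it was among the rises. Its height is given in FPM, the pileup of fragments at the peak summit per 1000000 fragments of the library, and was 5.89, 4.1 and 2.74 FPM in the day 1 libraries, against 1.18, 1.85 and 1.09 in the day 0 libraries. No day 1 library overlapped a day 0 library, and the median-centred log2 difference was 1.81 ± 0.25 (SE), adjusted p = 4.42e-07. Gm30713, a long non-coding RNA gene whose nearest coding gene is Sipa1l2, has its window at chr8:125385646-125385945 on the plus strand, and the region there also rose (1.58 ± 0.22 (SE), adjusted p = 5.15e-07). Sbno2 encodes a transcriptional co-regulator, and the region at its window (chr10:80075390-80075689, minus strand) had 3.86, 3.03 and 2.05 FPM in the day 1 libraries, against 6.81, 8.61 and 7.75 in the day 0 libraries. It fell with every day 1 value below every day 0 value (-1.20 ± 0.19 (SE), adjusted p = 5.96e-06). The region at the start of the non-coding gene Gm30615 (chr16:76471214-76471513, minus strand), with Nrip1 as its nearest coding gene, fell as well (-1.17 ± 0.29 (SE), adjusted p = 0.00294).

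The windows of Osbpl2 (chr2:180119056-180119355, plus strand) and Ptprs (chr17:56462172-56462471, minus strand) belong to the 2 highest start regions, and neither passed the test between the days. Osbpl2, a sterol-binding protein gene, had 15.2, 14.5 and 5.75 FPM in the day 1 libraries, against 13, 12.9 and 9.39 in the day 0 libraries. The Runx1 window, at chr16:92697280-92697579 on the minus strand, lies 95.9 kb inside the gene and holds 35 CpG dinucleotides. The region at it had 3.86, 3.21 and 1.92 FPM in the day 1 libraries, against 3.72, 3.81 and 2.62 in the day 0 libraries, and its log2 difference was -0.00 ± 0.21 (SE), adjusted p = 0.997. The 4 windows at changed regions hold 6, 2, 8 and 1 CpG dinucleotides in the order printed, against 29, 18 and 35 in the 3 that did not pass. These windows were picked for large change, for height or for the gene, so the contrast cannot be carried over to other start regions. Windows at all 33 start regions that rose had a median of 26 CpG dinucleotides, and those at the 32 that fell had 10. The median of all start windows at constitutive distal regions was 21.

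In all, 738 of the 3455 constitutive distal regions off chromosome 18 (21.4%) overlapped such a window, and the table holds no entry on that chromosome. Because the gene table gives only the outer ends of a gene, these are alternative starts within coding genes (552) and starts of long non-coding RNAs (186). Start windows at constitutive distal regions held a median of 21 CpG dinucleotides, against 7 in all 32851 windows of the table and 23 at gene-end regions. Motifs were searched on both strands, and a match is a description of letters only. GGGCGG, the GC box of SP and KLF factors, stood in 64.5% of the 738 windows, against 74.7% at gene-end regions and 35.7% of all windows. The NRF1 motif stood in 12.2% of the 738 and in 6.23% of all windows. TGANTCA, the AP-1 motif, stood in 6.91% of the 738, in 3.82% at gene-end regions and in 7.81% of all. Among the start regions that changed, the AP-1 letters stood in 0 of 33 windows of those that rose and in 6 of 32 of those that fell. The NRF1 letters stood in 11 of the 33 and 3 of the 32. The median CpG number was 26 in the 33 and 10 in the 32.

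Among the other motifs, TGTGGT, the RUNX letters, stood in 12.9% of the 738 windows, in 11.2% at gene-end regions and in 16.8% of all windows, and in 4 of the 33 and 8 of the 32. The CTCF core stood in 3.52% of the 738 and 2.43% of all windows. Shares for GGAATG (TEAD), TTGCNNAA (C/EBP), CCAAT (NFY), CAGCTG (an E-box), TTGGCA (a part of the NFI site) and TGACGTCA (CRE) were 13.6%, 9.89%, 41.6%, 12.5%, 11.2% and 2.17% of the 738, against 14.7%, 10.8%, 37.4%, 16.3%, 14.1% and 1.79% of all windows. The EBF, glucocorticoid receptor, full NFI and PPAR motifs stood in 9, 2, 0 and 0 of the 738. No motif contains another, although matches may overlap.

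**Figure D1:**
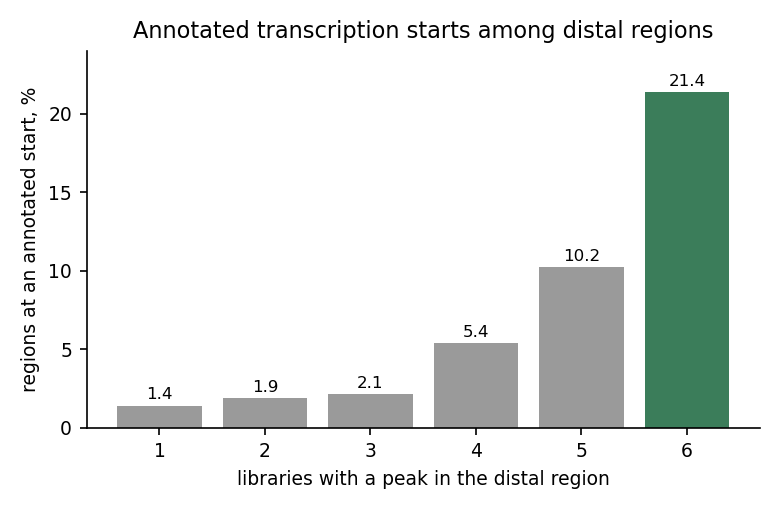
Share of distal regions that overlap an annotated transcription start (vertical axis, % of regions off chromosome 18) by the number of libraries with a peak in the region (horizontal axis). The share is 1.41% of regions in 1 library, 10.2% in 5 and 21.4% in 6, the constitutive set, drawn in green.

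The share of distal regions at a start grew with the number of libraries that had a peak. It was 2.49% over the 52588 distal regions in 1 to 5 libraries, and 82.2% of constitutive gene-end regions overlapped a start window. Within 1 kb of an end of a non-coding gene lay 459 constitutive distal regions (12.8%), against 5.44% of distal regions in 1 to 5 libraries. The nearest non-coding gene was a long non-coding RNA in 331 of the 459, a tRNA gene in 45, a pseudogene in 27, an snRNA in 18 and a miRNA in 17. For tRNA genes the shares were 1.25% of constitutive distal regions and 0.171% of distal regions in 1 to 5 libraries. These shares describe how the set was chosen, and no test was made of them.

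Merged constitutive distal regions had a median width of 616 bp, with the middle 50% between 478 and 814 bp and extremes of 177 and 3540 bp. They covered 2.4 Mb in all. The median width was 176 bp for distal regions with a peak in 1 library and 522 bp for those in 5. A merged region spans the peaks of all its libraries. Of the 3593, 2138 (59.5%) lay inside a coding gene and the rest between genes. The median distance to the nearest coding gene end was 16.2 kb, against 24.7 kb for distal regions in 1 to 5 libraries. Distances of 1 to 5 kb held 885 regions, 5 to 20 kb held 1101, 20 to 100 kb held 1229, and 378 lay more than 100 kb away. Summits of the 6 libraries fell close together, with a median range of 110 bp, and in 45.1% of regions all 6 lay within 100 bp. For gene-end regions the median range was 106 bp.

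The first comparison set the height and width of constitutive distal regions beside those of gene-end regions within each library. Distal regions were lower in 6 of 6 libraries. Their median height was 80%, 72% and 80% of the gene-end median in the day 1 libraries, against 84.4%, 82.9% and 84.6% in the day 0 libraries. The mean log2 difference, distal minus gene-end, was -0.31 ± 0.087 (SD, n = 6, exact two-sided sign-flip p = 0.031, the smallest 6 libraries can give). Distal regions were also narrower in every library, with a mean difference of -109.5 ± 23.0 bp (SD, n = 6, exact sign-flip p = 0.031). By day, the log2 difference averaged -0.37 ± 0.088 at day 1 and -0.25 ± 0.017 at day 0 (SD, n = 3 each). The day 1 libraries all lay below the day 0 libraries, and the exact permutation p was 0.1, the smallest that 3 libraries against 3 can give. With only distal regions over 5 kb from gene ends, the difference between the days was -0.16 and the exact permutation p was 0.2. Distal medians at day 1 were 16, 18 and 12 whole fragments, so these differences move in coarse steps.

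**Figure D2:**
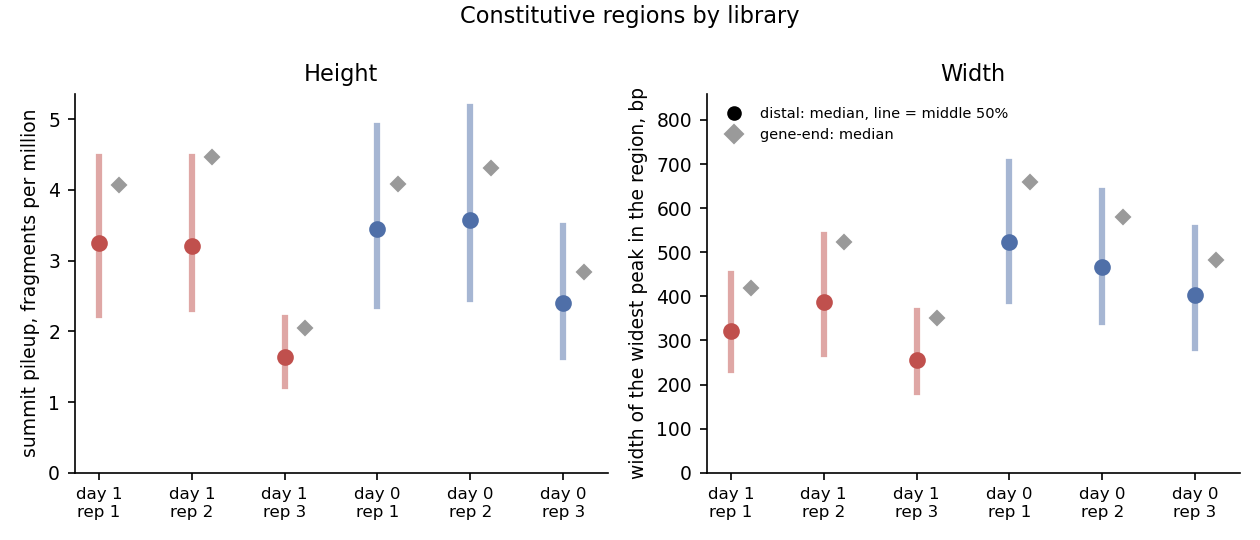
Height (left, summit pileup in FPM) and width (right, bp) of constitutive regions in each library, day 1 in red and day 0 in blue. Circles are medians of distal regions with lines over the middle 50%, and grey diamonds are medians of gene-end regions, which lie above the distal medians in all 6 libraries.

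The median height of constitutive distal regions was 3.25, 3.21 and 1.64 FPM in the day 1 libraries, against 3.45, 3.57 and 2.4 FPM in the day 0 libraries. The ranges of the days overlapped. The day means were 2.70 ± 0.918 at day 1 and 3.14 ± 0.642 at day 0 (3 libraries each, mean ± SD, two-sided permutation p by exact enumeration 0.5), and without day 1 replicate 3 the difference turned from -0.44 to 0.092. In cell populations, a lower height from fewer cells with an open region and one from less opening per cell cannot be told apart. Widths did not overlap between the days. The median width of the widest peak in a region was 321, 388 and 256 bp in the day 1 libraries, against 524, 467 and 404 bp in the day 0 libraries, a mean difference of -143.3 bp (exact permutation p = 0.1). The libraries held 4919755, 5603667 and 7302457 fragments at day 1 and 11011889, 8127635 and 9160156 at day 0, so depth moved with the day and its part in the widths was not tested. Peaks in constitutive distal regions made up 18.6%, 15.8% and 29.6% of the peaks of the day 1 libraries, against 6.64%, 8.85% and 9.77% of those of the day 0 libraries. The rule gives each library a peak in every region, 3674 to 3831 peaks in all. The shares therefore restate the list lengths, 20069, 23274 and 12556 peaks at day 1 and 55511, 41993 and 39211 at day 0.

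Regions at annotated starts were higher than the other distal regions of the same library, a split made after values had been seen. The median log2 difference between the 738 start regions and the other 2717 off chromosome 18 was 0.25 ± 0.098 (SD, n = 6, exact sign-flip p = 0.031), with the start regions higher in 6 of 6 libraries. They were also wider in every library, by 128.0 ± 33.3 bp (SD, n = 6, exact sign-flip p = 0.031).

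The second comparison asked which constitutive distal regions changed in height between day 1 and day 0. Heights were put on a log2 scale, centred on the median of all 9136 constitutive regions of the library, and tested with limma and Benjamini-Hochberg adjustment over all 9136 (threshold 0.05). At day 1, 454 of the 3593 distal regions rose and 535 fell, 989 in all (27.5%). Over all 9136 regions 14.6% were called, 7.73% as rises and 6.88% as falls. Of the 989, 453 differed by at least 1 on the log2 scale. The day 1 and day 0 libraries did not overlap in 1499 distal regions (41.7%) on this scale, against 29.5% of all 9136. The median log2 difference was 0.00 for distal regions and 0.06 for all regions.

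The count of calls depended on the scaling, and the direction of the whole set with it. On the FPM scale without centring, 28 distal regions passed as rises and 47 as falls, and the median log2 difference was -0.21 for distal and -0.15 for all regions. Over all 9136 regions, 0.328% passed as rises and 0.525% as falls on that scale. On the FPM scale without day 1 replicate 3, a setting chosen after seeing the data, 240 distal regions rose and 159 fell, so that 60.2% of calls were rises against 45.9% with median centring. That setting called 3.05% of all 9136 regions as rises and 1.82% as falls, with medians of 0.11 for distal and 0.19 for all regions. With quantile normalisation 375 distal regions rose and 556 fell, and over all 9136 regions 6.06% rose and 7.34% fell. Every region called in either FPM setting was also called with median centring and kept its sign.

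The share of changed regions differed with position. Away from annotated starts and non-coding gene ends, 32.6% of regions between genes and 32.7% of regions inside a gene were called, against 8.81% of those at annotated starts (33 rises and 32 falls of 738) and 6.24% of gene-end regions (252 rises and 94 falls of 5543). By distance from the nearest gene end, the called share was 16.6% at 1 to 5 kb, 26.1% at 5 to 20 kb, 32.5% at 20 to 100 kb and 41.0% beyond 100 kb. Beyond 100 kb, 59 regions rose and 96 fell. The counts of this paragraph rest on median centring. On the FPM scale 5 rose and 14 fell beyond 100 kb, and 0 start regions passed in either direction. On that scale without day 1 replicate 3, 29 rose and 36 fell beyond 100 kb. In that setting rises outnumbered falls between genes (84 and 75) and inside a gene (130 and 72), so the excess of falls was not kept there. Height moved with direction. Among regions with a mean height up to 2.24 FPM, 185 rose and 22 fell, whereas among those above 3.97 FPM 63 rose and 227 fell. A low region had to reach a peak in the shallower day 1 libraries to be in the set, and the part of height and of this condition in the counts was not tested.

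**Figure D3:**
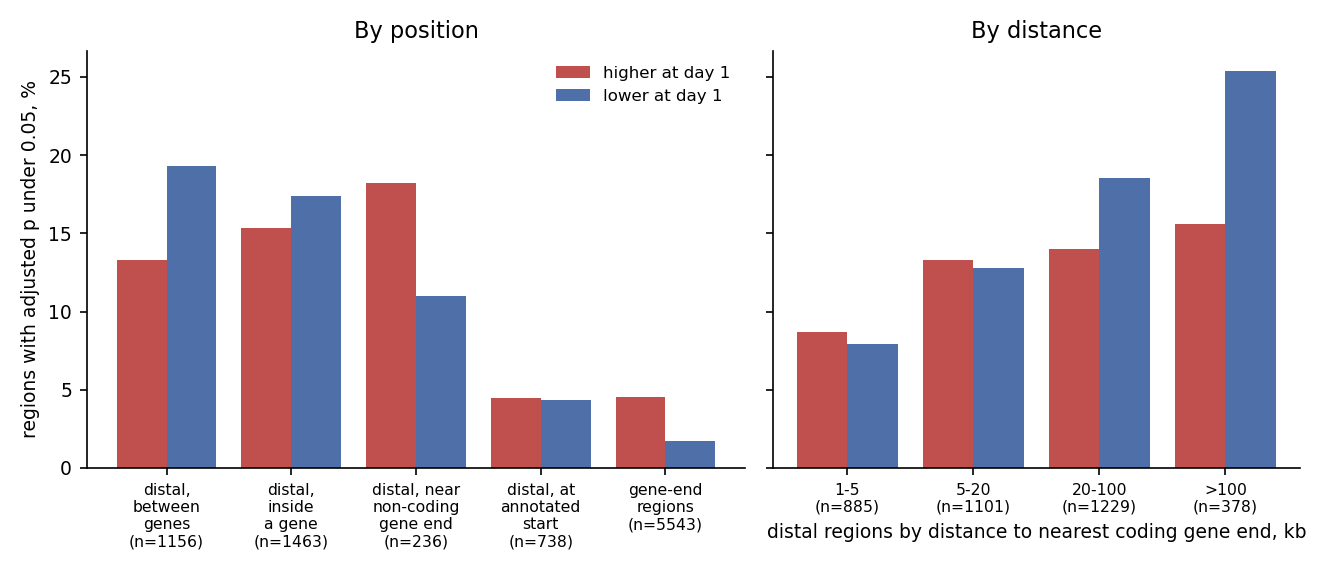
Share of regions (vertical axis, %) that were higher (red) or lower (blue) at day 1 with adjusted p under 0.05 after median centring. Regions are split by position (left) and, for distal regions, by distance to the nearest coding gene end (right). Regions at annotated starts and gene-end regions have the shortest bars, and the bars for falls rise to 25.4% beyond 100 kb.

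Of the 45 regions within 1 kb of tRNA genes, a group singled out after its values were seen, 19 rose at day 1 (42.2%) and 0 fell, against 12.6% and 14.9% of all distal regions and 7.73% and 6.88% of all 9136. Of the 45, 39 had a positive log2 difference, with a median of 0.47 against 0.00 for all distal regions. tRNA genes are short and are transcribed by RNA polymerase III. The region beside the histidine tRNA gene n-THgtg3 (chr2:122377195-122378144, nearest coding gene Shf) had 6.71, 5.18 and 4.38 FPM in the day 1 libraries, against 3.81, 2.71 and 1.86 in the day 0 libraries. All 3 day 1 libraries lay above the day 0 libraries there (1.21 ± 0.21 (SE), adjusted p = 2.58e-05). Beside n-TAagc10 on chromosome 13 the log2 difference was 1.29 ± 0.29 (SE), adjusted p = 0.000862. With quantile normalisation 14 rose and 0 fell, on the FPM scale 0 passed in either direction, and on that scale without day 1 replicate 3, 5 rose and 0 fell. Near-identical copies are common among tRNA genes, and the reads of such copies could not be told apart here.

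Regions within 1 kb of a miRNA gene that was their nearest non-coding gene numbered 17. A whole or partial hairpin lay in 5 constitutive distal regions, those of Mir199a-2, Mir5620, Mir7671, Mir713 and Mir449c. The Mir199a-2 region is not among the 17, as its nearest non-coding gene is Dnm3os. None of these 5 passed the test. Mir199a-2 lies in the region at the start of Dnm3os, a non-coding transcript antisense to Dnm3, which had 4.88, 4.64 and 1.78 FPM in the day 1 libraries, against 5.9, 5.78 and 4.69 in the day 0 libraries. Its mature miRNAs, from RefSeq (GRCm38.p6), are shown since they are the best known products of these 5 hairpins, with the seed, bases 2 to 8, in capitals.
mmu-miR-199a-5p: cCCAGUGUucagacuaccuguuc
mmu-miR-199a-3p: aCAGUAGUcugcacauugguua

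Among the 17, the region 122.0 bp from the Mir145a gene had 3.46, 4.28 and 2.19 FPM in the day 1 libraries, against 1.45, 1.85 and 1.31 in the day 0 libraries, and it rose without overlap (1.28 ± 0.25 (SE), adjusted p = 0.000142). The regions near Mir8096 (1.97) and Mir1904 (1.12, inside Pde4d) rose too, and that near Mir6976, whose nearest coding gene is Srf, fell (-0.63), each value a log2 difference. The rest of the 17 did not pass. Over all distal regions 12.6% rose and 14.9% fell.

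The 12 largest rises lay near Slc12a7, Amotl2, Itpk1, Cav1, Cyrib, Abhd5, Pank3, Cdkn2b, Slc43a1, Ina, Tcf7l1 and Cript, with log2 differences between 2.03 and 2.71. The largest was inside Slc12a7, a potassium chloride cotransporter gene (chr13:73773553-73774117), with 7.11, 5.35 and 3.7 FPM in the day 1 libraries, against 0.908, 0.984 and 0.873 in the day 0 libraries (2.71 ± 0.26 (SE), adjusted p = 5.85e-11). Amotl2 encodes a junction scaffold that binds YAP, and the region 13.5 kb from it (chr9:102746641-102747149) had 9.35, 9.1 and 4.93 FPM in the day 1 libraries, against 2.0, 1.85 and 0.873 in the day 0 libraries (2.55 ± 0.21 (SE), adjusted p = 2.69e-12). A second region inside Amotl2 rose as well (1.5 ± 0.24, SE, adjusted p = 5.3e-06). In both genes every day 1 library stood above every day 0 library, day 1 replicate 3 being the lowest of its day.

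Cav1 encodes caveolin 1, the coat protein of the caveolae that are abundant in fat cells. The region inside it (chr6:17314251-17315163) had 5.08, 3.39 and 2.05 FPM in the day 1 libraries, against 0.817, 0.738 and 0.546 in the day 0 libraries (2.46 ± 0.28 (SE), adjusted p = 5.45e-09). Its day 0 heights were 9, 6 and 5 fragments, where the lowest of any constitutive distal region were 6, 5 and 5. Abhd5 encodes the co-activator of the lipase ATGL, and the region 39.4 kb from it (chr9:122420396-122421547) had 6.5, 6.25 and 1.78 FPM in the day 1 libraries, against 1.45, 0.984 and 0.655 in the day 0 libraries (2.30 ± 0.27 (SE), adjusted p = 8.55e-09). The days stood apart in both. The region 111.2 kb from Cdkn2b, a gene of a cell cycle inhibitor, rose by 2.28 and that near Tcf7l1, a transcription factor of the Wnt pathway, by 2.05 on the log2 scale. The remaining rises lay near the inositol phosphate kinase gene Itpk1, the RAC1 regulator Cyrib, the coenzyme A kinase gene Pank3, the amino acid transporter Slc43a1 and Cript, and, beside Ina, inside the nucleotidase gene Nt5c2.

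**Figure D4:**
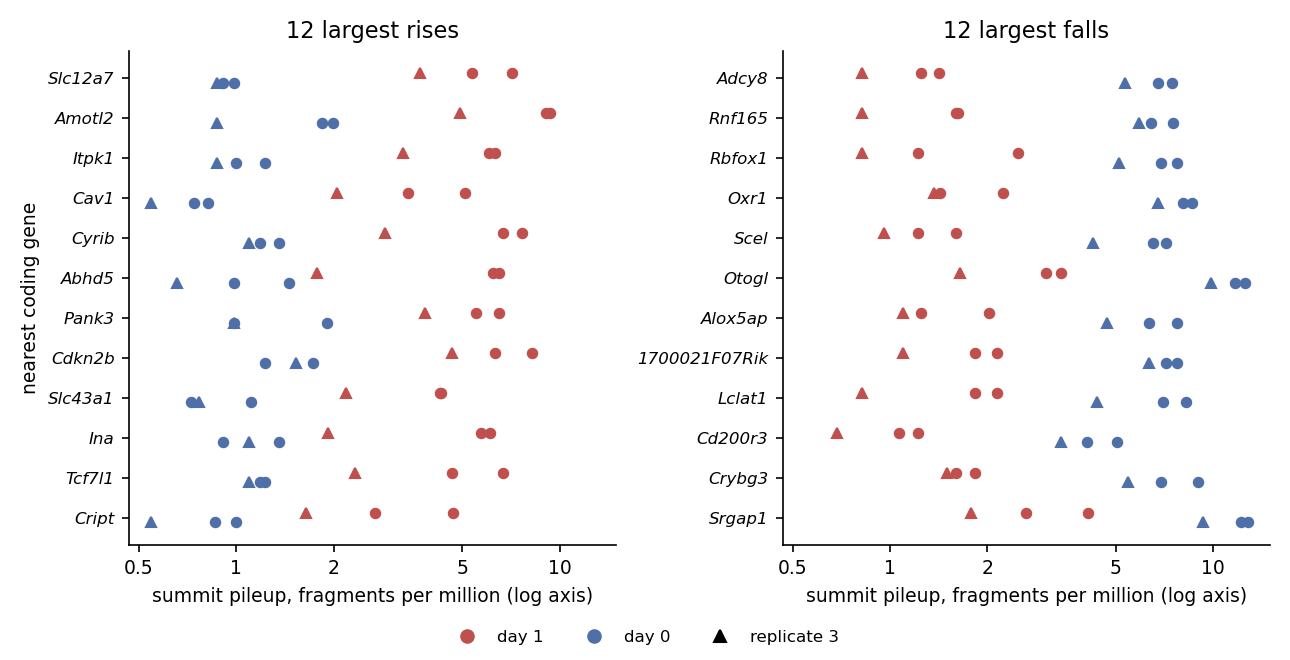
Height (horizontal axis, summit pileup in FPM, log axis) of the 12 largest rises (left) and falls (right) in each library, day 1 in red and day 0 in blue, with replicate 3 as triangles. Day 1 and day 0 points do not overlap in any of the 24 regions, and day 1 replicate 3 is the lowest of its day in all 24.

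The 12 largest falls lay near Adcy8, Rnf165, Rbfox1, Oxr1, Scel, Otogl, Alox5ap, 1700021F07Rik, Lclat1, Cd200r3, Crybg3 and Srgap1, with log2 differences between -2.30 and -1.86. The region 99.7 kb from Adcy8, an adenylyl cyclase gene (chr15:65021753-65022268), had 1.42, 1.25 and 0.822 FPM in the day 1 libraries, against 7.45, 6.77 and 5.35 in the day 0 libraries (-2.30 ± 0.23 (SE), adjusted p = 2.49e-10). Its day 1 heights were 7, 7 and 6 fragments, where the lowest of any constitutive distal region were 4, 5 and 5. Otogl encodes a protein of the inner ear, and the region inside it (chr10:107905433-107906328) was the highest of the falls at day 0 together with the one inside Srgap1. It had 3.05, 3.39 and 1.64 FPM in the day 1 libraries, against 12.5, 11.7 and 9.83 in the day 0 libraries (-1.92 ± 0.17 (SE), adjusted p = 1.3e-11). Alox5ap encodes the activator of 5-lipoxygenase in leukotriene synthesis. The region 32.8 kb from it had 2.03, 1.25 and 1.1 FPM in the day 1 libraries, against 6.36, 7.75 and 4.69 in the day 0 libraries (-1.91 ± 0.23 (SE), adjusted p = 2.37e-08). All 12 falls kept a peak in each day 1 library, as the selection requires. The 24 regions of both directions kept their call in all 312 values from the alternative settings, the FPM scale included, with adjusted p of at most 0.018.

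Of 21887 coding genes, 2799 (12.8%) were the nearest gene of at least 1 constitutive distal region. In the lists chosen for this cell type, the number of genes with such a region was 15 of 22 for adipogenic transcription factors, 17 of 30 for extracellular matrix genes and 12 of 24 for actin and SRF genes, against 5 of 20 for brown fat and thermogenic genes. It was 1 of 12 for endothelial markers, 1 of 12 for immune and 0 of 12 for skeletal muscle markers. No allowance was made for the length of the genes or for their spacing. The counts of rises and falls below stand against 12.6% rises and 14.9% falls over all distal regions, and the lists are small.

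Adipogenic transcription factors were the nearest genes of 26 regions, of which 7 rose, 2 fell and 17 did not pass. The called share was 34.6%, against 27.5% of all distal regions, with a median log2 difference of 0.16 (-0.05 on the FPM scale). With quantile normalisation 3 rose and 4 fell. Ebf2, a determinant of brown fat precursors, had 3 regions. The one 30.2 kb from it (chr14:67202844-67203426) had 5.08, 3.57 and 2.33 FPM in the day 1 libraries, against 1.45, 1.35 and 1.42 in the day 0 libraries, without overlap (1.52 ± 0.26 (SE), adjusted p = 1.5e-05). The other two differed by -0.03 and 0.10 log2 and did not pass. Ebf1 had 1 region that rose (log2 difference 0.96, adjusted p = 0.039) and 1 that did not pass, and of the KLF factors a region near Klf4 (0.75) and 2 near Klf15 (0.73 and 1.22) rose. Cebpb and Cebpd, the first C/EBP genes of adipogenesis, each had a region that fell. The one 87.3 kb from Cebpb lay at the start of the non-coding gene Gm32287. It had 5.08, 5.0 and 1.51 FPM in the day 1 libraries, against 7.26, 7.63 and 4.04 in the day 0 libraries (-0.64 ± 0.19 (SE), adjusted p = 0.0166). The days overlapped there in FPM and separated only after centring. The region near Cebpd fell by 0.82 log2. Nfia, which acts with EBF2 in brown fat, had 4 regions inside it and none passed.

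Of the 14 regulators and markers named in any case, Pparg, Cebpa, Prdm16, Ucp1, Runx2, Runx3, Cbfb and Adipoq were the nearest gene of 0 constitutive distal regions. Zfp423, a factor of pre-adipocyte commitment, had 1 region, which did not pass (-0.42, adjusted p = 0.23). Ppargc1a, the co-activator of mitochondrial and thermogenic genes, had 1 region inside it with 3.86, 4.1 and 1.64 FPM in the day 1 libraries, against 2.0, 2.21 and 1.75 in the day 0 libraries, where day 1 replicate 3 lay below all day 0 libraries before centring (0.80 ± 0.24 (SE), adjusted p = 0.0166). Fabp4, the fatty acid binding protein of fat cells, had 1 region 5.32 kb away (chr3:10213785-10214077), with 2.85, 3.21 and 1.51 FPM in the day 1 libraries, against 1.45, 1.72 and 0.764 in the day 0 libraries (1.16 ± 0.27 (SE), adjusted p = 0.00142). In the Fabp4 region the lowest day 1 value, 1.51, lay between the day 0 values, and the days separated only after centring.

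Runx1 was the nearest gene of 4 regions, 3 of them inside the gene. The region 42.2 kb from its end (chr16:92783642-92784114) had 2.85, 2.14 and 1.51 FPM in the day 1 libraries, against 2.18, 1.35 and 0.873 in the day 0 libraries and rose after centring, although the days overlapped (0.82 ± 0.28 (SE), adjusted p = 0.0381). The other regions, with the alternative start whose window is printed above among them, had log2 differences of -0.00 to 0.01. Runx1t1, a co-repressor first found as a fusion partner of RUNX1, had 1 region 321.0 kb away that fell (-0.65, adjusted p = 0.018).

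Brown fat and thermogenic genes had 5 regions, of which 2 rose, those of Ppargc1a and Esrrg, and 0 fell. Esrrg encodes a nuclear receptor of oxidative metabolism, and the region inside it (chr1:188118155-188118523) had 2.85, 3.75 and 1.37 FPM in the day 1 libraries, against 0.817, 0.984 and 0.655 in the day 0 libraries (1.81 ± 0.28 (SE), adjusted p = 3.28e-06). The days stood apart. Regions near Cidea, Pdk4 and Ppara did not pass, with log2 differences of -0.44, 0.75 and -0.36. Genes of lipid handling in mature fat cells had 7 regions, of which those near Fabp4 (1.16), Scd1 (1.04) and Gpam (0.87), a desaturase and an acyltransferase gene beside Fabp4, rose and 0 fell.

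Genes of the YAP, TAZ and TEAD group, which relay cell shape and tension, had 9 regions, all with positive log2 differences after median centring and 8 of 9 on the FPM scale. Of these 4 rose (44.4%, against 12.6% of all distal regions) and 0 fell, 2 at Amotl2, 1 at Tead4 and 1 near Ccn1 (0.83). The region inside Tead4, a DNA-binding partner of YAP (chr6:128282166-128282596), had 4.07, 4.1 and 2.19 FPM in the day 1 libraries, against 1.73, 1.6 and 1.53 in the day 0 libraries (1.25 ± 0.25 (SE), adjusted p = 0.000157). Both regions of Yap1 did not pass. Actin and SRF genes had 24 regions, with 8 falls (33.3%, against 14.9% of all distal regions), 3 rises and a median of -0.37. Both regions inside Myh9, the non-muscle myosin gene, fell, the first (chr15:77800452-77801075) with 2.64, 4.28 and 2.33 FPM in the day 1 libraries, against 7.36, 8.61 and 5.57 in the day 0 libraries (-1.03 ± 0.19 (SE), adjusted p = 6.63e-05). Srf itself had 2 regions that fell (-0.63 and -0.47), and the one near the vinculin gene Vcl fell by 1.21 log2. The rises were near Actb (0.91), Tpm1 (0.70) and in Lpp (1.40).

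Extracellular matrix genes had 22 regions, of which 4 fell and 0 rose. The share of falls, 18.2%, was near the 14.9% of all distal regions. The falls were near Col5a1 and Col4a1, which encode collagens, Thbs1, the thrombospondin 1 gene, and Timp3, an inhibitor of matrix proteases. Of the 3 Col5a1 regions, the one that fell (chr2:27936450-27937089) had 2.85, 1.96 and 1.1 FPM in the day 1 libraries, against 5.18, 4.68 and 4.59 in the day 0 libraries (-1.18 ± 0.23 (SE), adjusted p = 0.000117), and the Thbs1 region 72.2 kb from the gene, 1 of 2, had 3.46, 3.39 and 1.64 FPM in the day 1 libraries, against 7.45, 6.15 and 5.35 in the day 0 libraries (-1.01 ± 0.19 (SE), adjusted p = 7.29e-05). In both, every day 1 value lay below every day 0 value. TGF-beta and BMP pathway genes had 16 regions, 2 rises and 4 falls, a called share of 37.5% against 27.5% of all distal regions. Tgfbr3, a co-receptor, had 1 of each among its 4 regions, at 0.85 and -1.14 log2. Smurf1, a ubiquitin ligase of the pathway, had the strongest fall of the list, with 2.24, 3.21 and 1.1 FPM in the day 1 libraries, against 6.99, 7.26 and 4.59 in the day 0 libraries (-1.42 ± 0.20 (SE), adjusted p = 7.7e-07).

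AP-1 and immediate early genes had 17 regions, with 4 falls and 1 rise, near Jun (0.71, adjusted p = 0.032), and the called share of 29.4% was near the 27.5% of all distal regions. Myc, a growth regulator, was the nearest gene of 5 regions between 2.06 and 376.8 kb away, of which 2 fell. The stronger fall (chr15:62328230-62329305) had 4.27, 2.86 and 1.78 FPM in the day 1 libraries, against 8.35, 8.49 and 6.77 in the day 0 libraries (-1.28 ± 0.19 (SE), adjusted p = 1.06e-06). Fosb (-0.70) and Egr3 (-1.16) had the other falls, and the 3 regions near Fos did not pass. Glucocorticoid and cAMP responsive genes had 20 regions, 3 rises and 1 fall (20% called), with 2 of the rises inside the cAMP phosphodiesterase gene Pde4d (1.36 and 1.12). Insulin and growth factor genes had 11 regions, 27.3% of them called, where a region near Irs2, an insulin receptor substrate, rose (1.20, adjusted p = 3.84e-05) and regions near Igf1 (-1.02) and Grb10 (-1.15) fell.

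Pre-adipocyte markers had 6 regions, with rises near Ebf2 and Cd34 (0.72) and falls near Cd44 (-1.01) and Itgb1 (-0.81). CTCF and cohesin genes had 5 regions and cell cycle genes 6, and none of these 11 passed the test. Of other cell types, the region near Flt1, a VEGF receptor of endothelial cells, rose (1.28, adjusted p = 0.00046), while Pecam1 and Cdh5, the defining endothelial genes, had no peak within 1 kb of their ends in any library. Of the endothelial markers 8 of 12 had none, while Kdr and Flt1 had one in 4 libraries, Tal1 in 3 and Eng in 1. Of the immune markers 5 of 8 had none, while Spi1 had one in 5 libraries and Cd68 in 3. Of the muscle markers 4 of 6 had none, and Pax3 had one in all 6 libraries and Myod1 in 1. Of pre-adipocyte markers, Pdgfra, Dlk1, Cd34, Thy1 and Dpp4 had no peak at their ends in any library, Pdgfrb had one in 2 day 1 and 3 day 0 libraries, and Ebf2 and Ly6a in 1 day 1 and 3 day 0 libraries. Zic1, a gene of the brown lineage, had one in all 6, and Ucp1, Prdm16, Cidea, Dio2 and Cox8b in none. Each of the 6 adipocyte markers had one in at least 1 library, with Cebpa and Lpl in all 6.

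The list counts rest on median centring. On the FPM scale 1 region of the YAP group, the Amotl2 region given first, and 1 of the brown fat group, in Esrrg, passed, and 0 in the other lists. On that scale without day 1 replicate 3, a setting added after seeing the data, 3 regions of the YAP group and 2 of adipogenic factors rose, 0 of extracellular matrix genes passed, and 2 of the AP-1 list fell. The actin and SRF list then had 2 rises and 1 fall, so its excess of falls was not kept. Of the 60 called regions near the listed and named genes, 4 kept their call on the FPM scale. On that scale without day 1 replicate 3, 26 of the 60 kept it. All 60 kept their sign in both settings. The FPM scale with all libraries lowers every log2 difference by the same amount, so the kept signs there are no separate check.

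**Figure D5:**
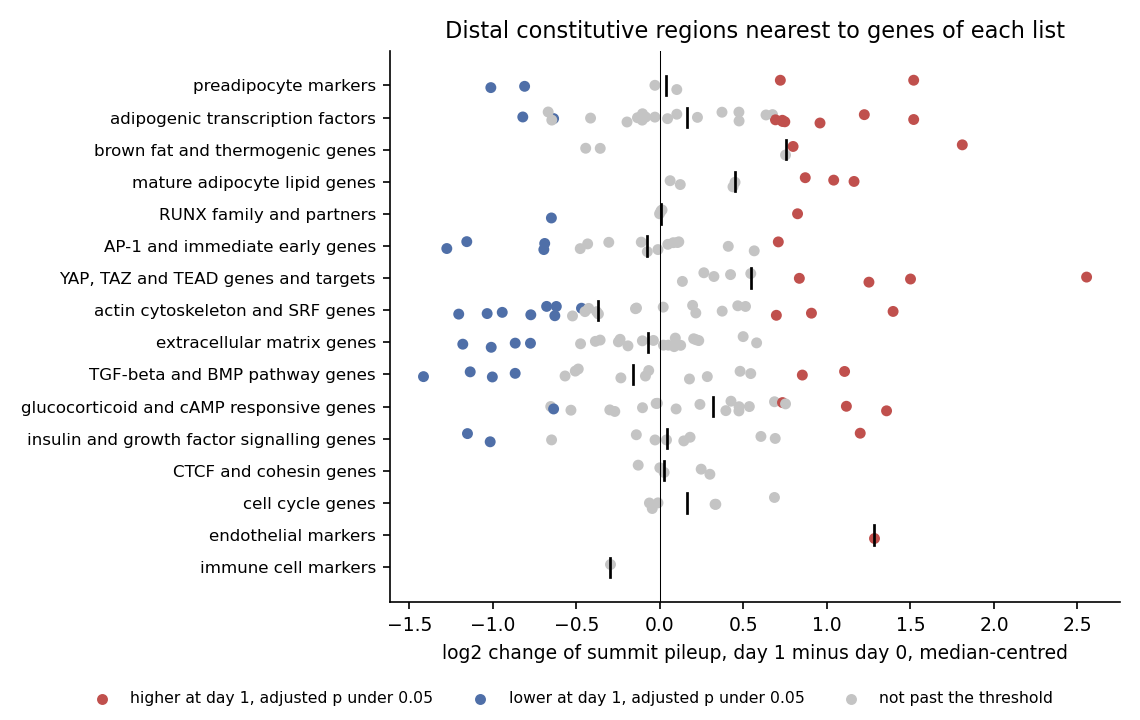
Median-centred log2 difference in height, day 1 minus day 0 (horizontal axis), of each constitutive distal region whose nearest coding gene belongs to a list (vertical axis). Red and blue points passed the test as higher or lower at day 1, grey points did not, and black bars are list medians, between -0.37 for actin and SRF genes and 0.75 for brown fat genes among lists with at least 5 regions.

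Single genes drew up to 7 constitutive distal regions. Of the 2799 nearest genes, 2235 had 1 and 46 had 4 or more. Lpp, a focal adhesion protein gene of 599.2 kb, and Sash1, a scaffold gene, had 7 each. Arid1b, Chst11, Pde4d, Prickle1, Rbfox2, Reep3, Slc39a11, Trib1 and Utrn had 6 each, and Arrdc3 was among 23 genes with at least 5. Most of these genes are long, with Pde4d at 1301.8 kb, but Trib1 spans 8.45 kb and its 6 regions lay 17.2 to 166.2 kb away. Regions of 1 gene could differ in direction. At Trib1, a pseudokinase gene that promotes the breakdown of C/EBPα, 1 region rose and 2 fell. The rise (chr15:59673993-59674509) had 4.07, 4.28 and 1.78 FPM in the day 1 libraries, against 0.999, 1.23 and 1.09 in the day 0 libraries (1.72 ± 0.27 (SE), adjusted p = 3.05e-06). The stronger fall (chr15:59822877-59823701) had 2.85, 3.21 and 1.51 FPM in the day 1 libraries, against 9.63, 8.49 and 5.9 in the day 0 libraries (-1.50 ± 0.18 (SE), adjusted p = 2.22e-08).

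At Utrn, the utrophin gene, 3 regions fell and 1 rose, with the strongest fall inside the gene at 1.22, 1.07 and 1.1 FPM in the day 1 libraries, against 4.99, 4.68 and 3.28 in the day 0 libraries (-1.70 ± 0.27 (SE), adjusted p = 3.76e-06). Arid1b, a chromatin remodelling subunit gene, had 3 rises and 1 fall. Calls in both directions were also found at Lpp (1.40 and -0.94), Chst11 (1.55 and -1.23), Slc39a11 (0.87 and -1.08), Reep3 (0.94 and -0.76) and Prickle1 (0.79 and -0.74). At Sash1 1 of 7 regions passed, a rise of 0.90.

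The highest constitutive distal regions were 3 on chromosome 17. The widest of all regions (chr17:39843215-39846754, 3540 bp) had 83.9, 86 and 63.8 FPM in the day 1 libraries, against 42.7, 59.3 and 28.5 in the day 0 libraries. They lie at Rn18s-rs5 and AY036118, annotated copies of ribosomal RNA sequence, with Esp38 as nearest coding gene more than 100 kb away. Reads from the many copies of such sequence cannot be told apart, so the heights and their log2 differences (1.06 to 1.16) are uncertain. Next came 2 of 3 neighbouring regions on chromosome 2, over 1 Mb from Lrrc4c, the higher of which had 33.3, 30.7 and 34.5 FPM in the day 1 libraries, against 26.2, 30.6 and 33.7 in the day 0 libraries. Apart from these, the third region of chromosome 2 and the regions near Col19a1 and Pex2, the highest lay inside Zc3h7a and Filip1l, near Mdm1 and at the Osbpl2 start. Zc3h7a, an RNA-binding protein gene, had 23.4, 34.8 and 18.6 FPM in the day 1 libraries, against 14.1, 14.8 and 5.68 in the day 0 libraries (1.44 ± 0.17 (SE), adjusted p = 9.6e-09). The Mdm1 region did not pass (-0.01). No list of repeat-rich regions was used, and whether any of these other high regions holds multi-copy sequence was not tested. That covers the regions on chromosome 2, near Col19a1 and near Pex2. It also covers those inside Zc3h7a (378 bp) and Filip1l (217 bp), which are narrow beside the median of 616 bp. Besides the ribosomal one, wide regions included those near App (1943 bp), Rarg (1911 bp) and Ccdc54 (1887 bp), of which the region at a start of Rarg, a retinoic acid receptor gene, fell (-0.59, adjusted p = 0.019).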

How the data were processed

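ATAC-seq peak lists of 6 libraries, 3 per day, were used, 1 list per library. Per the submitters' processing notes, reads were handled with HOMER 4.11, DiffBind 3.8.4, Bowtie2 2.4.4, deepTools 3.5.1, Trim Galore 0.6.7, MACS2 2.2.7.1 and SAMtools 1.15.1 on mm10, in no stated order. Per the file headers, MACS2 2.2.7.1 called peaks on paired fragments of each library, with no control and a q cutoff of 0.05, and the input carried a name for filtering and duplicate removal. The pileup column is a deposited signal in whole fragments at the summit, unscaled, and the length column is the width in bp, per the file headers. The deposited −log10 values of p and q, and the fold enrichment, a ratio of pileup to local background, were set by the authors against the same library. Of these, −log10 q served as a stricter filter of at least 5, and the ratio was not used for results.

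The steps here were the merging into regions, the distance to 21887 coding genes of a RefSeq table (GRCm38.p6), and, per region and library, the highest pileup of its peaks. Differences between days were fitted with limma 3.58.1 in R 4.3.3 on log2 pileup centred on the library median over 9136 regions, with variance trend, and adjusted by Benjamini-Hochberg over all of them. The procedure was tested on simulated data. Medians were compared between days by exact permutation and within libraries by exact sign flips, both two-sided. Fragment totals of 4919755 to 11011889 per library limit precision, and the median summit pileup was 12 to 38 fragments.

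Named regions were the 12 highest, the 12 largest changes in each direction, the 5 widest and those at the limits of the rule. Named genes were the nearest to these, the 12 with most regions, up to 4 per list with most regions, and 14 regulators and markers. Genes named beyond this rule, in the lists, at starts, miRNA and tRNA genes, were chosen after their values were seen. The regions and lists were chosen with earlier results of these data known. Alternatives were other scalings, a pseudocount of 1 fragment, no variance trend, mean in place of highest peak, a replicate block, leaving out each library, stricter peaks, overlaps and distances. Intron, exon and UTR positions were not used here.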

Additional observations from a re-analysis of the deposited data

Results flagged for a closer look

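Peaks outside chromosomes 1 to 19, X and Y entered no comparison. The day 1 libraries had 10, 9 and 7 such peaks, against 19, 10 and 14 in the day 0 libraries, so each library held signal in sequence that was left out. The highest of them had pileups of 133, 198 and 147 fragments in the day 1 libraries, against 169, 134 and 89 in the day 0 libraries.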

How the results depend on the processing

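The number of constitutive distal regions, 3593, was 2305 with peaks of −log10 q of at least 5, 1708 with equal lists of the 12556 strongest peaks per library, 1387 with 50% overlap of both peaks, and 3607 to 5710 when a library was left out, highest without day 1 replicate 3. Of 454 rises and 535 falls, 28 and 47 passed on the FPM scale, 240 and 159 on that scale without day 1 replicate 3, and 274 and 310 of the 2305 stricter regions. Leaving out 1 library gave 325 to 423 rises and 350 to 553 falls, lowest for falls without day 0 replicate 3. The day difference in median height, -0.44 FPM, was -0.81 to 0.092 when a library was left out and turned to 0.092 without day 1 replicate 3. Distal against gene-end height was -0.33 to -0.28 log2 and width -115.6 to -104.2 bp with 5 libraries, where the smallest p is 0.06. With a replicate block, 468 rose and 538 fell, and 981 of these calls were shared with the fit without it. Deviations from the day means had correlations of -0.0365, 0.0544 and 0.0081 between same-numbered libraries. Between differently numbered libraries they were -0.0745 to 0.0644. Deviations of 3 libraries cancel within a day, so these values cannot decide whether the number pairs the libraries. The cause of these differences was not tested. The median height of distal regions was 12 to 38 fragments per library, which limits the precision of a single height.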

Other observations

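Constitutive distal regions were spread unevenly over chromosomes. Relative to coding genes, chromosome 15 had 34.5 per 100 genes, chromosome 10 had 27.6 and chromosome 18 had 27.0, against 7.35 on X, 9.61 on chromosome 7 and 13.5 on chromosome 11. In numbers, chromosomes 10, 2 and 15 held 276, 275 and 268, X held 71 and Y held 1. The unevenness was shared in part by gene-end regions. Distal and gene-end regions together numbered 520 on chromosome 15 (776 coding genes) and 628 on chromosome 10 (1001 genes). They numbered 304 on chromosome 18 (511 genes), against 233 on X (966 genes). Distal ones made up 51.5%, 43.9% and 45.4% of these on chromosomes 15, 10 and 18, against 30.5% on X.

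Most constitutive distal regions stood alone, with a median gap of 246.8 kb between neighbours. Runs in which neighbours lay within 12.5 kb numbered 177 and held 376 regions (10.5%). The longest run had 5 regions over 26.8 kb around Cbarp on chromosome 10, followed by 4 regions over 12.2 kb inside Sash1. Runs of 3 lay near Kdm6b, a histone demethylase gene, Nr1d1, a circadian repressor gene, and Plec, the plectin gene, among others. No test was made of these positions.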
